A study of Homo sapiens with 36 samples.

Results

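The chemokines described here are 7 genes whose products attract monocytes and lymphocytes: CCL2, CCL7, CCL20, CXCL10, CXCL11, CXCL12 and CX3CL1. They were taken by symbol from the 57232 Ensembl genes of a count table of IMR90 ER:RAS cells, a human lung fibroblast line in which 4OHT switches on RAS and the cells stop dividing and become senescent. All 7 were in the table and all 7 were among the 18696 genes tested. Senescence raised CCL20, CXCL10, CCL7 and, less, CCL2, and lowered CXCL12, which was 40.8-fold lower at 36 h. The cardiac glycosides digoxin and ouabain then divided these genes: CCL2 and CXCL10 fell steeply by 36 h in senescent cells, while CCL20 rose to become by far the largest of the 7.

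Every library came from cells at passage 14, kept for 6 days before treatment. Proliferating cells had no 4OHT and received vehicle; senescent cells had 100 nM 4OHT and received vehicle, digoxin or ouabain. Each of these 4 kinds of cells was collected after 16 h, after 36 h, and after 36 h together with a caspase inhibitor, an agent that blocks the proteases of apoptosis, which makes 12 groups of 3 libraries. Doses of the drugs and of the inhibitor are not in the labels. No group of proliferating cells received a glycoside, so a drug effect here is always an effect in senescent cells, and the effect of 4OHT itself cannot be told apart from that of RAS and senescence. No label tells if replicates within a group were separate cultures, and the p-values then reflect only the variation among these libraries, possibly of technical origin.

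Chemokines are small secreted proteins that draw leukocytes along a gradient by way of G protein-coupled receptors. CCL2 and CCL7 bind CCR2 and bring monocytes into tissue, and CCL20 binds CCR6 on dendritic cells, B cells and Th17 cells. CXCL10 and CXCL11 bind CXCR3 on activated T cells and NK cells and are classical targets of interferon. CXCL12 binds CXCR4 and is made constitutively by many stromal fibroblasts, and CX3CL1 is a membrane-anchored chemokine that is shed by ADAM proteases and binds CX3CR1. Several of them belong to the secretory phenotype of senescent cells, through which such cells are known to attract immune cells that can clear them. Digoxin and ouabain block the sodium pump (Na/K-ATPase).

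The genes lie at 5 places in the genome. In the RefSeq annotation, CCL2 and CCL7 are neighbouring coding genes on chromosome 17, CXCL10 and CXCL11 are neighbours on chromosome 4, CX3CL1 lies on chromosome 16 between CCL22 and CCL17, CCL20 lies on chromosome 2 and CXCL12 on chromosome 10. The 250 bases before the start of 3 genes are shown because CXCL10 and CXCL11, which are neighbours, fell with the drugs by 36 h, and CCL20 rose. They are RefSeq sequence of build GRCh38.p14, 5′ to 3′ along the gene: CCL20 chr2:227813592-227813841 (plus strand), CXCL10 chr4:76023498-76023747 (minus strand) and CXCL11 chr4:76036071-76036320 (minus strand). Capitals mark matches to the kB motif of NF-kB, to the core of the interferon-stimulated response element (ISRE core) and to the AP-1 motif.
CCL20: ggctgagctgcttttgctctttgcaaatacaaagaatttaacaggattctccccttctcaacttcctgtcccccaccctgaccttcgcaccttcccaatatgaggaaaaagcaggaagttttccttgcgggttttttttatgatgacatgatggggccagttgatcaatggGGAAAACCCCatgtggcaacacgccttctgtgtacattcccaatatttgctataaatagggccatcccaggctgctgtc
CXCL10: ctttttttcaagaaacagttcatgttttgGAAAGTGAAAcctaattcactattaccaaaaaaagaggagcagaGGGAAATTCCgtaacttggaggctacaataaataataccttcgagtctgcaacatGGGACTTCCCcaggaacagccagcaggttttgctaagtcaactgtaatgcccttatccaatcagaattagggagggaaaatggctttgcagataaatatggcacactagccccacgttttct
CXCL11: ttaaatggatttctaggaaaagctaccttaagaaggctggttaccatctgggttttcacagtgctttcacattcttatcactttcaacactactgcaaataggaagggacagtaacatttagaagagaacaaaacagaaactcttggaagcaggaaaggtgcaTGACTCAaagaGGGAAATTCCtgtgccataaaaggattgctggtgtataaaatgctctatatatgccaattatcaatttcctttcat

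Both strands were searched for the kB motif, for the ISRE core (a pair of GAAA blocks 2 bases apart), for the AP-1 motif (TGANTCA) and for the TATA box (TATAAA), and none of the matches in these genes overlap. CCL20, the gene that rose, had a kB match from 79 to 70 bases before its start, read on the strand opposite to the gene. CXCL10, which fell, had kB matches from 177 to 168 and from 122 to 113 bases before its start and an ISRE core from 221 to 212. CXCL11 had a kB match from 76 to 67 and an AP-1 match from 87 to 81. A kB match was present in front of CCL20, CXCL10 and CXCL11, and its part in their changes was not tested. CCL7 had an AP-1 match from 51 to 45 bases before its start and no kB match. Among all 35116 RefSeq windows of this length, 5.21% held the kB motif, 3.02% the ISRE core, 6.57% the AP-1 motif and 10.7% the TATA box. CXCL12 held none of the 4 motifs and had a GC content of 78%, against a median of 58% over all windows. Of the 7 genes, 5 matched an entry of the promoter table; CCL2 and CX3CL1 did not. A match is a run of letters and shows no binding.

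**Figure D1:**
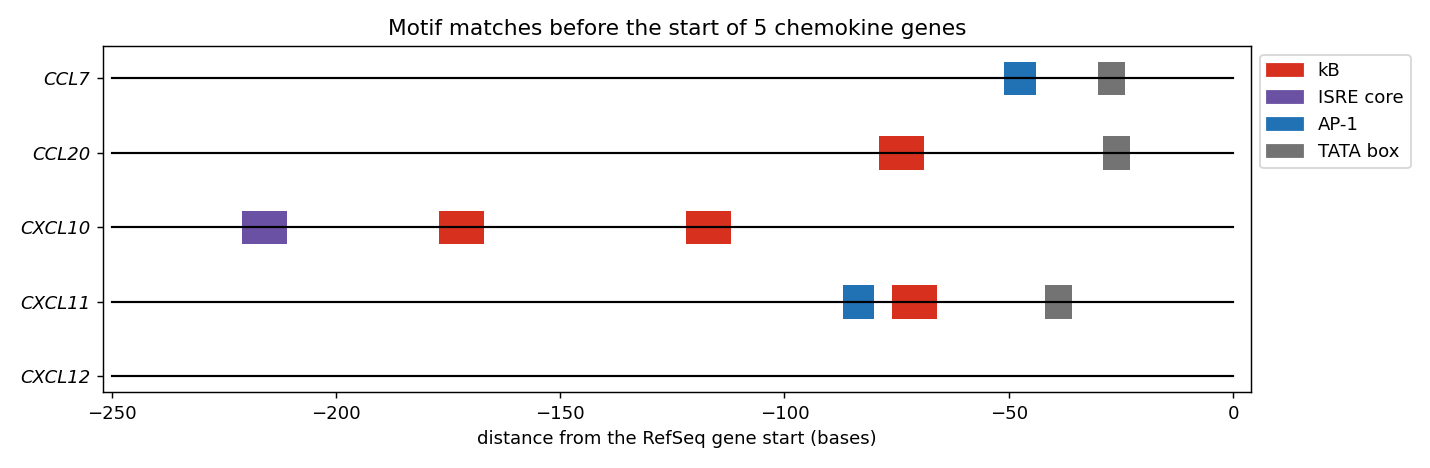
Motif matches (coloured bars) in the 250 bases before the RefSeq start of 5 chemokine genes, with the distance from the start in bases on the x axis and 1 line per gene. CCL20, CXCL10 and CXCL11 hold kB matches, CXCL10 alone of these 5 holds an ISRE core, and CXCL12 holds none of the 4 motifs.

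Library totals lay between 10854351 and 21446415 counts. Levels are CPM, counts scaled to a common library size with TMM factors, values after ± are SD for levels (n = 3) and standard errors for log2 changes, and genes were called at an adjusted p under 0.05 in edgeR's quasi-likelihood test over all 18696 genes. Over all 36 libraries, CCL20 had 69774 counts and CCL2 had 17261, against 2293 for CXCL12, 1756 for CXCL10, 478 for CX3CL1, 218 for CCL7 and 189 for CXCL11, so the last 3 rest on few counts per library. HRAS stood at 445 to 553 CPM in the means of proliferating groups, at 1060 to 1280 CPM in senescent vehicle groups and at 2730 to 5070 CPM in drug-treated groups, higher in every senescent than in every proliferating group and highest with the drugs. Replicate 2 of proliferating cells at 16 h and replicate 2 of ouabain at 16 h were treated as deviating. Their median absolute log2 differences to the other replicates were 0.375 and 0.27. Replicate 1 of proliferating cells at 16 h had 0.274, against a mean that includes replicate 2. This measure alone therefore does not single out the libraries treated as deviating. Summed fibroblast markers (9 genes) lay between 10100 and 32800 CPM and were lowest after 36 h of drug. At 36 h COL1A1, COL1A2, COL3A1, VIM, PDGFRB and FN1 had lower means with both drugs than with vehicle. DCN stood at 84.1 CPM in senescent vehicle cells, 226 CPM with digoxin and 224 CPM with ouabain. In the same groups LUM stood at 49.9, 87 and 85.4 CPM, and THY1 at 325, 313 and 325 CPM. All 9 fibroblast markers had counts in every group. The 8 leukocyte markers summed to 0.678 to 1.84 CPM in vehicle groups and 2.83 to 7.75 CPM in drug-treated groups, and their part in the results was not tested. Of these 8, CD3E of T cells was at 0 in all groups but 1. CD14 of monocytes had group means of 0 to 0.13 CPM without drug and 0.919 to 1.72 CPM with drug. At 36 h, ITGAM stood at 0.0296 CPM in senescent vehicle cells, 1.16 CPM with digoxin and 1.29 CPM with ouabain. In the same groups CD68 stood at 0.824, 1.04 and 0.833 CPM. CSF1R, too low to be tested, stood there at 0.373, 0.113 and 0.145 CPM (24, 5 and 7 counts). At 16 h CSF1R was at 0.295 CPM in senescent vehicle cells, 0.216 CPM with digoxin and 0.348 CPM with ouabain. PTPRC stood at 0.155, 0.252 and 0.381 CPM in the 36 h groups and was not called. It was called higher with both drugs at 16 h and with the inhibitor. The 5 endothelial markers found summed to 6.02 to 18 CPM without drug and 15.1 to 39.6 CPM with drug, the rise coming from KDR. The endothelial markers TEK and VWF were called lower at 36 h, with log2 changes of -1.36 and -1.12 with digoxin. With ouabain they changed by -1.13 and -0.71. The 6 epithelial markers summed to 23.8 to 62.5 CPM. With library sizes alone as the scale, the median log2 change over all genes at 36 h went from -0.02 to -0.34 with digoxin and from 0 to -0.23 with ouabain. The share of higher calls shifted with it, from 5909 of 11963 to 4278 of 12684 calls for digoxin and from 5642 of 11403 to 4348 of 11923 for ouabain.

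Senescence changed most of these chemokines: CCL20, CXCL10, CCL7 and CCL2 rose at every time, and CXCL12 fell. At 16 h, 4 of the 7 genes were higher and 1 was lower in senescent than in proliferating vehicle cells, where 26.4% of all tested genes were higher and 25.2% lower (51.6% called in all). At 36 h 5 were higher and 1 lower (26.7% and 25.8% of all genes, 52.5% in all). With the inhibitor the counts were again 5 and 1 (26.6% and 25.7%, 52.3% in all). The median log2 change of the 7 at 36 h was 2.27, beside -0.01 over all genes. In a bulk sample, more cells that make a transcript and more of it per cell cannot be told apart.

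CCL20 was almost absent from proliferating cells. At 16 h its level was 0.0858, 0.0573 and 0 CPM in the 3 proliferating libraries (3 counts in all) and 11.7, 7.59 and 6.52 CPM in the senescent vehicle libraries. At 36 h it was 0.105, 0.0442 and 0.206 CPM against 16.5, 12.3 and 15.9 CPM. The groups were far apart at both times. The ratio of counts at 16 h was 160 (95% counting interval 54.5 to 779), and the log2 change at 36 h was 6.86 ± 0.38 (116-fold, adjusted p = 2.61e-17). With the inhibitor it was 5.47 ± 0.40.

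CXCL10, the interferon-inducible T cell chemokine, rose from a low base. Proliferating cells at 36 h held 0.789, 0.354 and 0.741 CPM and senescent vehicle cells 8.04, 8.5 and 9.91 CPM. All senescent vehicle libraries lay above all proliferating libraries, and the log2 change was 3.81 ± 0.33 (14-fold, adjusted p = 3.07e-12). At 16 h, with 0.643, 0.401 and 0.123 CPM against 5.86, 5.04 and 4.16 CPM, it was 3.56 ± 0.38 (adjusted p = 8.8e-10). CXCL11, its neighbour with the same receptor, was detected at no more than 1.06 CPM in any library. Its 36 h values of 0, 0.221 and 0.165 CPM in proliferating cells and 0.219, 1.06 and 0.726 CPM in senescent cells touched at their edges. The log2 change was 2.27 ± 0.66 at 36 h (adjusted p = 0.00379), 1.71 ± 0.67 with the inhibitor (0.0307) and 1.85 ± 0.80 at 16 h, which missed the threshold (0.0512). The call with the inhibitor was lost under scaling by library size (1.56) and without any of 3 libraries (lowest 1.27), and the 16 h change was called without the filter on low counts (1.87) or without replicate 3 of either group (2.34 and 2.28).

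CCL2, the main monocyte chemokine, was high already in proliferating cells. Its 16 h levels were 32.2, 16.4 and 25.3 CPM in proliferating and 47.4, 41.7 and 36.2 CPM in senescent vehicle libraries. Its 36 h levels were 29.8, 22.3 and 38.1 CPM against 57.3, 50.6 and 51.4 CPM. The groups did not overlap, but the change was modest, at 0.75 ± 0.22 on the log2 scale at 16 h (adjusted p = 0.00397), 0.82 ± 0.21 at 36 h (0.00143) and 0.78 ± 0.22 with the inhibitor (0.00271). CCL7, which shares the receptor CCR2 and the locus, rose further from a far lower level. It stood at 0.105, 0 and 0.0823 CPM in proliferating and 0.492, 0.643 and 0.299 CPM in senescent vehicle cells at 36 h, a log2 change of 2.83 ± 0.63 (adjusted p = 0.000267). At 16 h the change was 2.37 ± 0.54. With the inhibitor, 2 counts in all proliferating libraries stood against 17 in senescent ones, a ratio of 9.35 (95% counting interval 2.22 to 83.4).

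CXCL12 went the other way. This homeostatic chemokine of stroma stood at 13, 9.95 and 12.7 CPM in proliferating cells at 36 h and at 0.383, 0.23 and 0.256 CPM in senescent vehicle cells. Its log2 change was -5.35 ± 0.25 (40.8-fold lower, adjusted p = 1.36e-19), after -5.54 ± 0.26 at 16 h and with -5.40 ± 0.25 under the inhibitor. The levels of all 3 proliferating groups, 10.4 to 13.8 CPM on average, did not overlap with any senescent group, vehicle or drug. CX3CL1, the shed and membrane-bound member, was not called in senescence. Its means were 0.727 ± 0.195 CPM in proliferating and 0.483 ± 0.108 CPM in senescent cells at 36 h, a log2 change of -0.55 (95% interval -1.41 to 0.31).

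**Figure D2:**
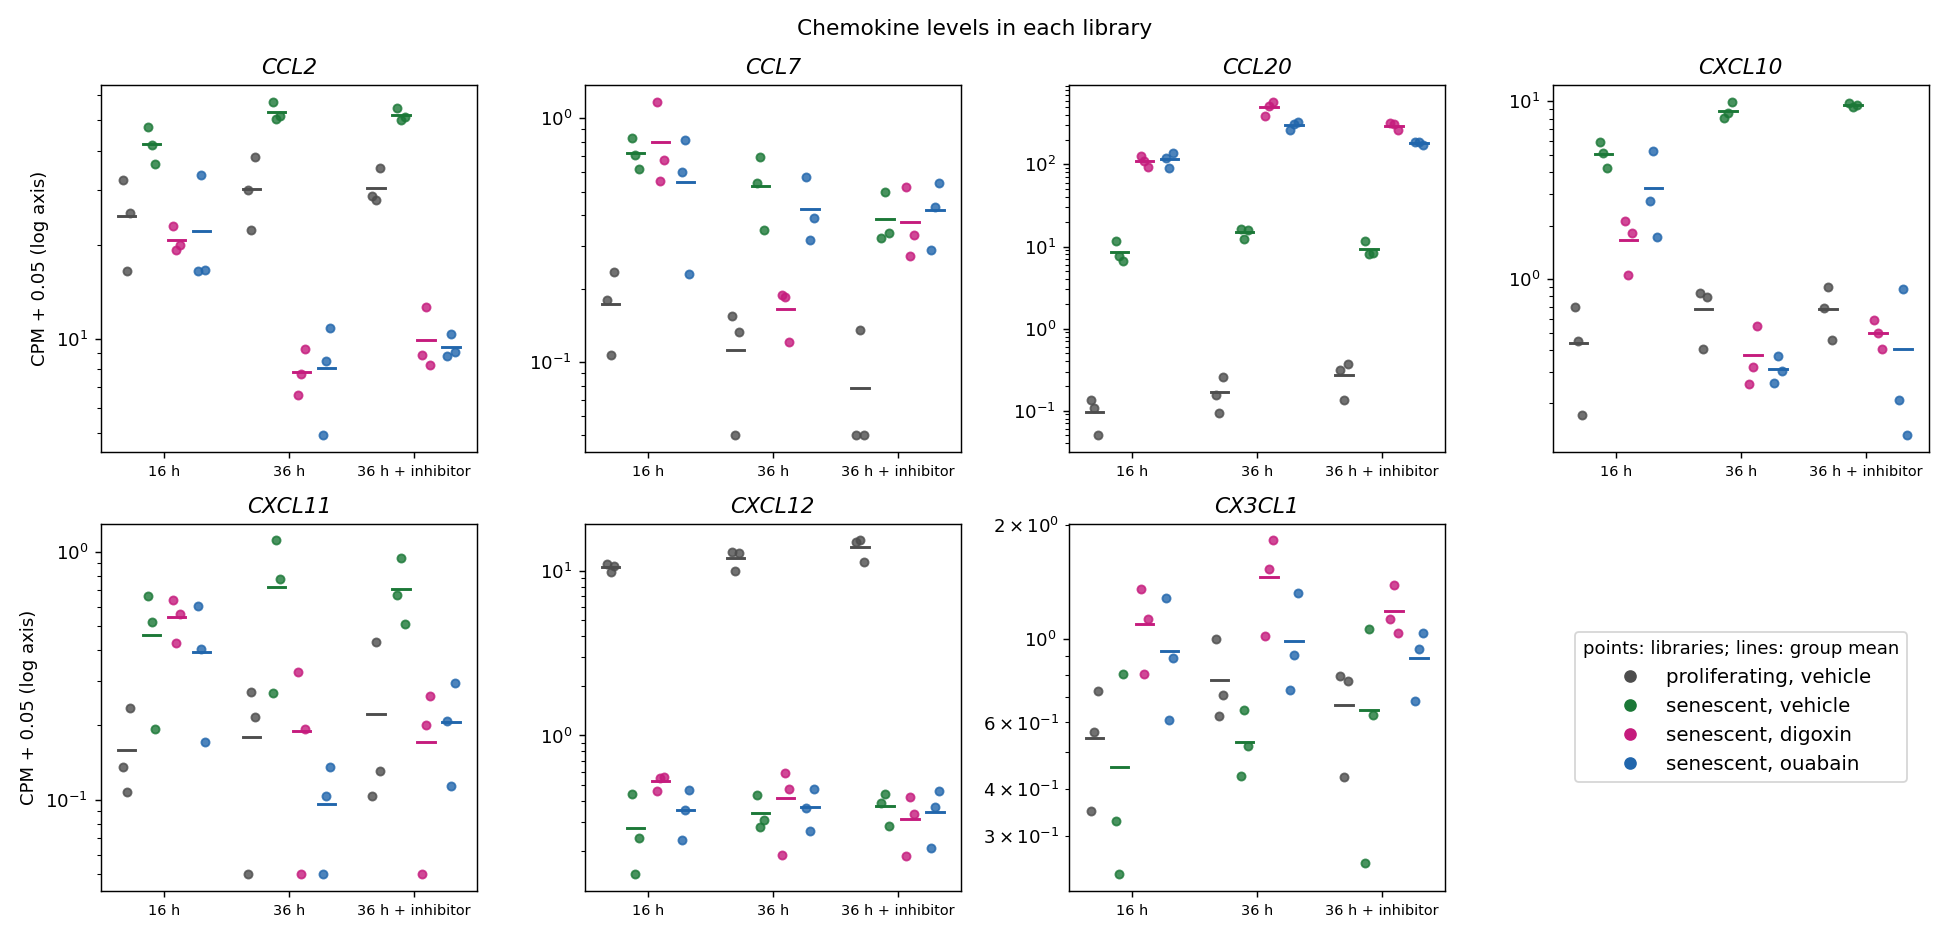
Level of each chemokine in every library as CPM + 0.05 on a log axis, by time and inhibitor arm (x axis), with proliferating vehicle in grey, senescent vehicle in green, digoxin in magenta and ouabain in blue; points are libraries and lines are means of 3. CCL2 and CXCL10 drop with both drugs at 36 h, CCL20 climbs to 390 to 582 CPM with digoxin and 265 to 328 CPM with ouabain at 36 h, and CXCL12 is high in grey groups alone.

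Glycosides moved the members apart from each other. With digoxin, 3 of the 7 were higher and 2 lower at 16 h, beside 28.3% and 31.3% of all genes (59.6% called in all). At 36 h 2 were higher and 4 lower (31.6% and 32.4% of all genes, 64% in all), and with the inhibitor 1 was higher and 3 lower (30.3% and 32.1%, 62.4% in all). With ouabain 2 were higher and 1 lower at 16 h (25.1% and 28.4% of all genes, 53.4% in all). At 36 h the counts were 1 and 3 (30.2% and 30.8%, 61% in all), and with the inhibitor 1 and 3 (28.9% and 30.6%, 59.5% in all). The share called among the 7 is thus close to that of all genes, and the direction and size of each gene carry the information. The median log2 change of the 7 at 36 h was -1.98 with digoxin and -0.31 with ouabain, beside -0.02 and 0 over all genes. Both drugs are compared with the same vehicle libraries, so their values below are not independent.

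CCL20 rose with both drugs at every time. At 16 h digoxin libraries held 126, 111 and 92.2 CPM and ouabain libraries 119, 91.3 and 137 CPM, where the senescent vehicle libraries held 6.52 to 11.7 CPM. At 36 h the levels were 390, 518 and 582 CPM with digoxin and 265, 309 and 328 CPM with ouabain, against 12.3 to 16.5 CPM with vehicle. No drug-treated library came near the vehicle range. The log2 changes were 3.69 ± 0.18 at 16 h and 5.06 ± 0.18 at 36 h with digoxin (33.4-fold, adjusted p = 1.59e-22), and 3.76 ± 0.18 and 4.34 ± 0.18 with ouabain (20.2-fold, adjusted p = 7.36e-21). Against proliferating cells, CCL20 was 3860-fold higher with digoxin and 2340-fold higher with ouabain at 36 h. The proliferating group held only 8 counts of CCL20 at that time, so the size of these folds is uncertain. At 16 h, with 3 counts in the proliferating group, the count ratios were 2080 (95% counting interval 711 to 10100) and 2170 (742 to 10500).

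CXCL10 lost its senescent level. At 36 h it stood at 0.207, 0.27 and 0.497 CPM with digoxin and 0.209, 0.32 and 0.254 CPM with ouabain, where senescent vehicle cells held 8.04 to 9.91 CPM. The log2 change was -4.74 ± 0.40 with digoxin (26.8-fold lower, adjusted p = 1.53e-12) and -5.04 ± 0.41 with ouabain (32.9-fold lower, adjusted p = 5.01e-13). At 16 h digoxin libraries held 2.06, 1.01 and 1.76 CPM, already all under the vehicle libraries, a log2 change of -1.62 ± 0.31 (adjusted p = 2.33e-05). Ouabain at 16 h gave 2.7, 5.18 and 1.68 CPM, with the middle value, that of the deviating replicate 2, inside the vehicle range. The change of -0.62 ± 0.27 missed the threshold (adjusted p = 0.0541) and was -1.19 without that library (adjusted p = 0.000719); it passed also under scaling by library size (-0.89), without the filter on low counts (-0.69) and without replicate 3 of vehicle (-0.75).

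CCL2 fell under its level in proliferating cells. With digoxin it was 22.9, 19.2 and 19.9 CPM at 16 h and 6.55, 7.69 and 9.23 CPM at 36 h. With ouabain it was 16.4, 33.4 and 16.6 CPM at 16 h and 4.87, 8.47 and 10.8 CPM at 36 h. All of these lie below the vehicle libraries of the same time (36.2 to 47.4 and 50.6 to 57.3 CPM), with replicate 2 of ouabain at 16 h closest to them. The log2 changes were -1.01 ± 0.22 and -2.76 ± 0.25 for digoxin (adjusted p = 0.000175 and 6.21e-12) and -0.90 ± 0.22 and -2.76 ± 0.25 for ouabain (0.000713 and 6.19e-12). Compared with proliferating cells at 36 h, its log2 change was -1.94 ± 0.25 with either drug (adjusted p = 1.54e-08 for digoxin and 1.35e-08 for ouabain). At 16 h it was not called against proliferating cells, at -0.26 with digoxin and -0.15 with ouabain; the value for ouabain was -0.60 and called without its replicate 2, and that for digoxin -0.48 and called without replicate 2 of proliferating cells. Under scaling by library size both were called (-0.68 with digoxin and -0.52 with ouabain), as was digoxin without the filter (-0.33).

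CXCL11 was lower with both drugs at 36 h. It was at 0.276, 0 and 0.142 CPM with digoxin and 0, 0.0533 and 0.0847 CPM with ouabain at 36 h, beside 0.219, 1.06 and 0.726 CPM in vehicle cells. The digoxin and vehicle libraries overlapped, and the ouabain libraries lay below all vehicle libraries. The change with digoxin was -2.25 ± 0.74 (adjusted p = 0.00817), a call lost without replicate 2 of digoxin (-1.68) or of vehicle (-1.79). With ouabain, 2 counts stood against 44, so that vehicle was higher by a count ratio of 17.2 (95% counting interval 4.49 to 147, adjusted p = 0.000387). At 16 h the log2 change was 0.30 ± 0.60 with digoxin and -0.22 ± 0.64 with ouabain, neither called.

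CCL7 fell with digoxin at 36 h and was otherwise not called with either drug. Its 36 h levels were 0.138, 0.135 and 0.071 CPM with digoxin, below every vehicle library, and 0.523, 0.266 and 0.339 CPM with ouabain, which overlapped the vehicle libraries (0.299 to 0.643 CPM). The log2 changes were -1.98 ± 0.63 (adjusted p = 0.00634) and -0.31 ± 0.47 (0.589). With the inhibitor present the digoxin value was -0.05 ± 0.55. So CCL7 and its neighbour CCL2 had different values under ouabain, where CCL2 changed by -2.76.

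CXCL12 stayed near its senescent floor. Its levels with either drug lay between 0.135 and 0.54 CPM, while proliferating libraries held 9.69 to 15.2 CPM. Digoxin at 16 h gave a call of 1.11 ± 0.46 (adjusted p = 0.0347), with 0.412, 0.503 and 0.512 CPM against 0.39, 0.0942 and 0.189 CPM, which was lost under scaling by library size (0.80), without the filter on low counts (1.03) and without any of 4 libraries, at the lowest 0.74 without replicate 2 of vehicle. CX3CL1 tended to be higher in drug-treated libraries. At 36 h it was 0.966, 1.48 and 1.77 CPM with digoxin, above the vehicle values of 0.383, 0.597 and 0.47 CPM, and the log2 change was 1.52 ± 0.40 (adjusted p = 0.00143). At 16 h it was 1.33 ± 0.43 with digoxin (0.00835, and 0.96 with adjusted p = 0.0716 without replicate 2 of vehicle) and 1.05 ± 0.44 with ouabain (0.0461). The ouabain call at 16 h was lost under scaling by library size (0.77), without the filter (0.98), in a fit of these groups alone (1.07) and without any of 4 libraries. At 36 h ouabain gave 0.68, 0.853 and 1.27 CPM, above all vehicle libraries, with a log2 change of 0.87 ± 0.43 that was not called (adjusted p = 0.0772) but was in a fit of these groups alone (0.87, adjusted p = 0.0348).

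**Figure D3:**
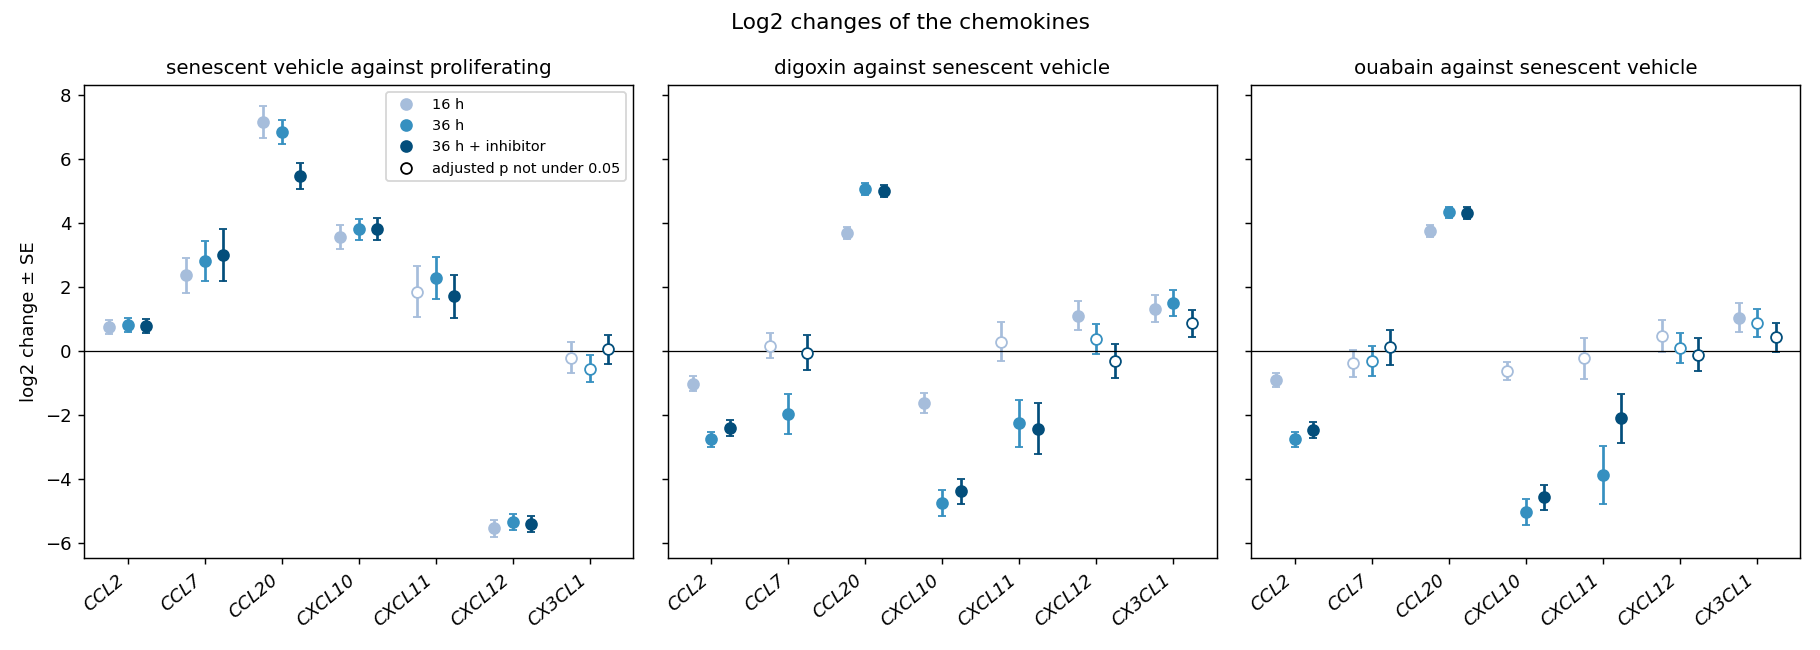
Log2 change ± SE of each chemokine (x axis) for senescence, digoxin and ouabain, at 16 h (light), 36 h (middle) and 36 h with the caspase inhibitor (dark); open circles mark adjusted p values not under 0.05. CCL20 is positive in all 3 panels, from 3.69 to 7.16, while CXCL10 is positive in senescence and reaches -4.74 with digoxin and -5.04 with ouabain. The 7.16 of CCL20, for senescence at 16 h, rests on 3 counts in the proliferating group.

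The effects on CXCL10 and CCL2 were larger at 36 h than at 16 h with both drugs, and that on CCL20 with digoxin. Of the 7 differences between the digoxin effect at 36 h and at 16 h, 1 was higher and 4 were lower (23.4% and 19.3% of all genes, 42.7% in all), and for ouabain 0 were higher and 3 lower (18.4% and 16.7%, 35.1% in all). For CXCL10 the effect of digoxin was lower by a further -3.12 ± 0.57 on the log2 scale (adjusted p = 3.07e-05) and that of ouabain by -4.42 ± 0.53 (3.57e-08). For CCL2 the differences were -1.75 ± 0.33 and -1.86 ± 0.33 (5.01e-05 and 2.68e-05). CCL20 gained 1.37 ± 0.24 with digoxin (1.8e-05), while the gain of 0.58 ± 0.24 with ouabain missed the threshold (0.0634) and passed it in 5 of the alternatives, as at 0.64 under scaling by library size. In the drug-treated cells themselves, 36 h against 16 h, CCL20 rose by 2.18 ± 0.16 with digoxin and 1.38 ± 0.15 with ouabain, CXCL10 changed by -2.30 ± 0.52 and -3.60 ± 0.47, and CCL2 by -1.40 ± 0.26 and -1.51 ± 0.25. In each drug 1 of the 7 was higher and 3 were lower over time. Over all genes 30.2% were higher and 27.4% lower with digoxin (57.6% called in all), and 25.9% higher and 24.2% lower with ouabain (50% in all).

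Vehicle cells moved little over the same time. In senescent vehicle cells CCL20 rose by 0.80 ± 0.19 (adjusted p = 0.0182), the only 1 of the 7 called where 1.54% of all genes were. That call was lost without replicate 2 (0.73) or 3 (0.64) of the 16 h group and without replicate 1 (0.73) or 3 (0.75) of the 36 h group. CXCL10 stood at 4.16 to 5.86 CPM at 16 h and 8.04 to 9.91 CPM at 36 h, without overlap, a log2 change of 0.82 ± 0.24 that was not called (0.0902) but was in a fit of these groups alone (0.85) and without the filter (0.82). In proliferating cells 0 of the 7 were called in edgeR (8.14% of all genes), 0 by DESeq2, and 0 had an unadjusted p under 0.05. The senescence effect likewise differed between the times for 0 of the 7 in edgeR (2.13% of all genes), for 0 by DESeq2, and for 0 at an unadjusted p under 0.05.

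Digoxin and ouabain are both cardenolides, a steroid with a lactone ring and sugar; digoxin carries a chain of digitoxose sugars, and ouabain a rhamnose and a more hydroxylated steroid. CCL20 differed between the drugs at 36 h, and no other member was called. Over the 21 comparisons of a member between the drugs (7 genes in 3 arms), 2 were called, with p-values adjusted over all genes. At 36 h CCL20 was lower with ouabain than with digoxin by a log2 change of -0.72 ± 0.15 (95% interval -1.03 to -0.42, adjusted p = 0.00329), where 5.36% of all genes were called. With the inhibitor it was again lower, at 188, 190 and 171 CPM with ouabain against 318, 309 and 262 CPM with digoxin, a log2 change of -0.69 ± 0.15 (95% interval -1.0 to -0.39, adjusted p = 0.0104, 1.45% of all genes). The libraries of the drugs did not overlap in either arm. The call with the inhibitor was lost without replicate 1 of digoxin (-0.64) or replicate 3 of ouabain (-0.65).

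At 16 h, CCL20 differed between the drugs by 0.08 (95% interval -0.23 to 0.39). CXCL10 was higher with ouabain than with digoxin by 1.00 ± 0.32 at 16 h (0.34 to 1.66), which was not called in edgeR (adjusted p = 0.0673). This difference was called by DESeq2 (0.99, adjusted p = 0.0482), without the filter (1.01) and without replicate 1 (1.11) or 3 (1.3) of ouabain. It was 0.42 without replicate 2 of ouabain, which stood at 5.18 CPM. In edgeR with the filter and all libraries, no member was called at 16 h, where 4.94% of all genes were. Of the 7, 1 had an unadjusted p under 0.05. CCL2 differed by 0.00 at 36 h (95% interval -0.59 to 0.59). CCL7 was higher with ouabain by 1.67 ± 0.67 at 36 h (0.30 to 3.04, adjusted p = 0.147), without overlap of the libraries and without a call. Since the labels give no doses, these are differences between the treatments as given.

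The caspase inhibitor lowered CCL20 in every senescent group and moved no other member past the threshold. In senescent vehicle cells CCL20 was 11.5, 8.11 and 8.32 CPM with the inhibitor and 16.5, 12.3 and 15.9 CPM without, a log2 change of -0.69 ± 0.19 (adjusted p = 0.0231, 7.41% of all genes called). In digoxin-treated cells the change was -0.75 ± 0.15 (adjusted p = 0.00512, 0.877% of all genes) and in ouabain-treated cells -0.72 ± 0.15 (0.00194, 8.89%). With and without the inhibitor the CCL20 libraries did not overlap in any of the 3. In vehicle cells the call was lost without any of 4 libraries, at the smallest -0.59, and in digoxin-treated cells without replicate 3 with the inhibitor (-0.66) or replicate 3 without it (-0.62). In proliferating cells, 0 members were called by edgeR (3.59% of all genes) or DESeq2, and 0 had an unadjusted p under 0.05.

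With the inhibitor present CCL20, CXCL10 and CCL2 were again called with both drugs. The change of CCL20 was 5.00 ± 0.19 with digoxin and 4.31 ± 0.19 with ouabain, that of CXCL10 -4.39 ± 0.38 and -4.57 ± 0.40, and that of CCL2 -2.40 ± 0.24 and -2.46 ± 0.25. CXCL11 was lower too, at -2.42 ± 0.79 with digoxin (lost without replicate 1 of digoxin with the inhibitor, -1.84) and -2.10 ± 0.77 with ouabain (lost without replicate 2 of ouabain, -1.68, or of vehicle, -1.80, with the inhibitor). CCL7 and CX3CL1, called with digoxin alone, were not called with digoxin and inhibitor, at -0.05 ± 0.55 and 0.87 ± 0.42; the value of CX3CL1 was called in a fit of these groups alone (0.91) and without replicate 2 of vehicle with the inhibitor (1.46). The differences between the drug effects with and without the inhibitor were called for 0 of the 7 with digoxin (0.246% of all genes) and 0 with ouabain (0.15%), in edgeR and in DESeq2. An unadjusted p under 0.05 was found for 1 with digoxin, CCL7 at 1.93 ± 0.86, and for 0 with ouabain. For CCL20 the 95% intervals of these differences ran from -0.56 to 0.44 and from -0.53 to 0.47, and for CCL2 from -0.34 to 1.07 and from -0.41 to 1.00.

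The balance between the 7 transcripts turned over with treatment. To compare levels between genes, CPM was divided by exon length in kb, taken as the union of all annotated exons. CCL2 made up 82.6% to 84.1% of the summed level per kb of the 7 in proliferating groups and 59.9% to 66.4% in senescent vehicle groups. CCL20 made up 16.7%, 20.9% and 14.2% in senescent vehicle cells at 16 h, at 36 h and with the inhibitor. With digoxin its share was 83.9%, 98.5% and 96.9%, and with ouabain 82.5%, 97.5% and 95.3%. In counts, which need no length, the median library had 0.287 counts of CCL20 for each count of CCL2 in senescent vehicle cells at 36 h, 63.1 with digoxin and 36.5 with ouabain. The lowest digoxin library at 36 h stood at 59.4 and the highest vehicle library at 0.309.

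**Figure D4:**
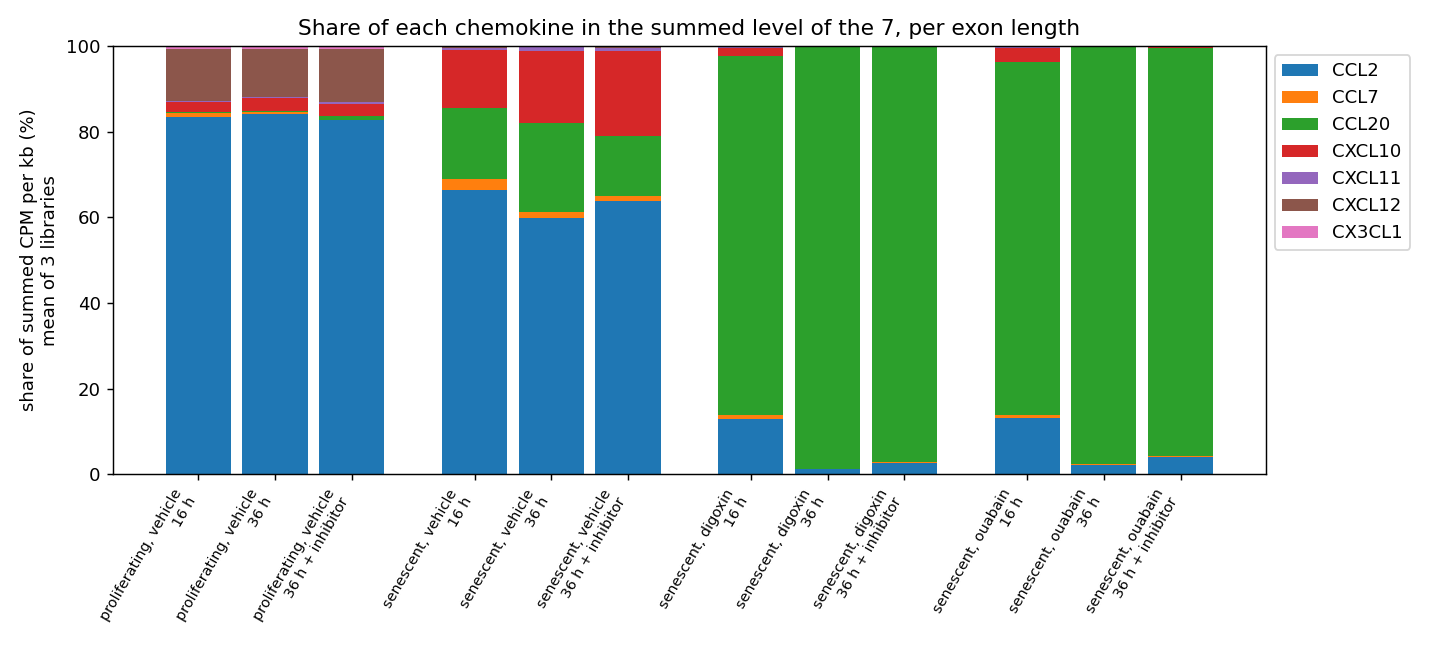
Share of each chemokine in the summed CPM per kb of exon of the 7 genes, in percent, as the mean of 3 libraries for each of the 12 groups; bars start at 0. CCL2 leads in proliferating groups (82.6% to 84.1%) and CCL20 in drug-treated groups (82.5% to 98.5%).

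Against proliferating cells the drug-treated cells did not return to a common baseline. With digoxin, 5 of the 7 were higher and 1 lower at 16 h, where 35.1% of all genes were higher and 38% lower (73.1% called in all). At 36 h the counts were 2 and 2 (35.5% and 36.8% of all genes, 72.3% in all) and with the inhibitor 3 and 2 (35.5% and 36.8%, 72.4% in all). With ouabain they were 3 and 1 at 16 h (34.3% and 36.1%, 70.3% in all), 2 and 2 at 36 h (35% and 35.6%, 70.6% in all) and 2 and 2 with the inhibitor (34.9% and 35.5%, 70.4% in all). CXCL10 at 36 h was not called against proliferating cells, at -0.93 with digoxin (95% interval -2.16 to 0.29) and -1.23 with ouabain (-2.47 to 0.01), and both passed the threshold under scaling by library size, at -1.39 and -1.59. The ouabain value passed also with DESeq2 (-1.22), without the filter (-1.29) and without replicate 2 of proliferating cells (-1.52). Of the higher calls, those of CX3CL1 with digoxin were lost under scaling by library size in all 3 arms (0.70, 0.51 and 0.53) and without any of 2, 4 and 5 single libraries at 16 h, at 36 h and with the inhibitor. That of CXCL11 with digoxin at 16 h was lost under scaling by library size (1.75) and without replicate 1 of proliferating cells (adjusted p = 0.0501), and that of CCL7 with ouabain at 16 h without both deviating libraries (1.22). CXCL12 remained 31.6-fold lower with digoxin and 38.4-fold lower with ouabain at 36 h, and CCL7 was higher than in proliferating cells with ouabain at 36 h by 2.52 ± 0.68 (adjusted p = 0.00145).

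The order of the 12 group means sums this up for each gene. CCL2 ran from 53.1 CPM in senescent vehicle cells at 36 h to 7.82 CPM with digoxin at 36 h, and the 4 drug groups of 36 h at the bottom overlapped in their libraries from neighbour to neighbour. CCL20 ran from 496 CPM with digoxin at 36 h to 0.0477 CPM in proliferating cells at 16 h, and among its gaps between neighbours were those between digoxin at 36 h (496 CPM) and ouabain at 36 h (301 CPM), between digoxin at 16 h (110 CPM) and senescent vehicle at 36 h (14.9 CPM), and between senescent vehicle at 16 h (8.59 CPM) and the highest proliferating group (0.224 CPM). CXCL10 ran from 9.49 CPM in senescent vehicle cells with the inhibitor to 0.261 CPM with ouabain at 36 h, and its 7 lowest groups, all proliferating or drug-treated for 36 h, overlapped from neighbour to neighbour. CXCL12 had 1 gap, between the proliferating groups (lowest mean 10.4 CPM) and the rest (highest mean 0.476 CPM). CCL7 had 1 gap too, between 0.325 CPM with digoxin and inhibitor and 0.123 CPM in proliferating cells at 16 h. Neighbours in the order of CXCL11, from 0.667 to 0.046 CPM, and of CX3CL1, from 1.41 to 0.408 CPM, all overlapped.

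Patterns of the members over the 12 group means were compared as a description, since the groups share time, treatment and library preparation. Mean log2 CPM of CXCL10 and CXCL11 had a Pearson correlation of 0.92, and CCL2 and CXCL10 one of 0.81. The neighbours CCL2 and CCL7 had 0.07, and CCL20 had -0.64 with CCL2. Among tested genes with a name and at least 1 CPM, those most like CCL20 were TNFRSF10B, ENTPD7 and MYCT1 (0.996 each), and those most like CXCL12 were CEMIP (0.995), CORIN (0.995) and SMAD9 (0.993). CCL2 was most like EPHA4 (0.992), NFS1 (0.99) and PRPSAP2 (0.989), and CXCL10 most like OLA1P1 (0.986), DKK2 (0.977) and MRPL15 (0.971). For the low members the best matches were weaker, as PDE6D for CXCL11 (0.974), ZBED6 for CX3CL1 (0.959) and ASPHD1 for CCL7 (0.953).

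Other chemokines of monocytes and lymphocytes were mostly silent. Of 22 listed, 19 were in the table and 5 were tested: CCL22, CCL26, CCL28, CXCL14 and CXCL16. In senescence at 36 h 1 of the 5 was higher and 0 lower, with digoxin 4 and 0, with ouabain 3 and 0. Over all genes, 26.7% were higher and 25.8% lower in senescence at 36 h, 31.6% and 32.4% with digoxin, and 30.2% and 30.8% with ouabain, the shares beside which this and the following lists stand. Their median log2 change was -0.41, 1.94 and 1.47 in these comparisons, beside -0.01, -0.02 and 0 over all genes. CXCL14, a chemokine of barrier tissues, rose by 4.60 ± 0.48 with digoxin and 4.32 ± 0.49 with ouabain, from 0.0784 to 2.08 and 1.7 CPM. CXCL16, the ligand of CXCR6, rose by 2.99 ± 0.32 and 2.82 ± 0.32. CCL26, an eotaxin, rose by 2.28 ± 0.35 in senescence and by a further 1.34 ± 0.24 and 1.47 ± 0.23 with the drugs. The 6 tested neutrophil chemokines, CXCL1, CXCL2, CXCL3, CXCL5, CXCL6 and CXCL8, rose in all 3 of these comparisons, as CCL20 did. CXCL8 went from 704 CPM in senescent vehicle cells to 8040 CPM with digoxin and 6050 CPM with ouabain at 36 h. Like CCL20, CXCL1, CXCL2 and CXCL3 were called lower with ouabain than with digoxin at 36 h (-0.70, -0.72 and -0.93), where 5.36% of all genes were called. CXCL5, CXCL6 and CXCL8 were not. Mean levels of CXCL1, CXCL2, CXCL3, CXCL5 and CXCL6 were also lower with the inhibitor in senescent vehicle, digoxin-treated and ouabain-treated cells. CXCL1, for example, stood at 164 against 302 CPM with digoxin.

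Receptors for the members were found at low levels. Of 12 listed, 7 were tested, and at 36 h 3 were higher and 1 lower in senescence, 5 and 0 with digoxin (median log2 change 2.71) and 5 and 1 with ouabain (median 2.88), beside the shares of all genes given above. CCR1, not called with digoxin, was lower under scaling by library size (-0.78). CXCR4, the receptor of CXCL12, had no count in proliferating cells at 36 h, was at 0.985 CPM in senescent vehicle cells and rose by 3.61 ± 0.28 with digoxin and 3.25 ± 0.28 with ouabain, to 12.2 and 9.46 CPM. CCRL2, an atypical receptor, rose by 2.23 ± 0.27 in senescence and by 3.59 ± 0.15 and 3.37 ± 0.15 with the drugs, and ACKR2, a scavenger of inflammatory CC chemokines, by 2.56 ± 0.36 and 2.18 ± 0.37 with the drugs. Among the proteases that trim or shed chemokines, 7 of 10 were tested. ADAM17, which sheds CX3CL1, rose by 1.58 ± 0.09 with digoxin and 1.41 ± 0.09 with ouabain. DPP4, which trims CXCL10, CXCL11 and CXCL12, rose by 1.29 ± 0.06 in senescence and changed by -0.43 ± 0.06 and -0.55 ± 0.06 with the drugs. The matrix protease MMP3 rose by 6.91 ± 0.15 in senescence and by 3.40 ± 0.12 and 3.36 ± 0.12 with the drugs, and MMP1 by 4.53 ± 0.13, 1.66 ± 0.11 and 1.67 ± 0.11. MMP14, a membrane-bound protease, rose by 1.71 ± 0.06 in senescence and changed by -0.22 ± 0.06 and -0.14 ± 0.06 with the drugs, the last not called with RLE size factors (-0.11). Over the 7 tested, 5 were higher and 1 lower in senescence (median 1.29), 4 and 2 with digoxin (0.60) and 4 and 3 with ouabain (0.58). With RLE size factors the 3 lower with ouabain became 1, as ADAM10 (-0.14) was lost as well as MMP14, and under scaling by library size ADAM10 was lower with digoxin (-0.27), which made 3 lower.

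**Figure D5:**
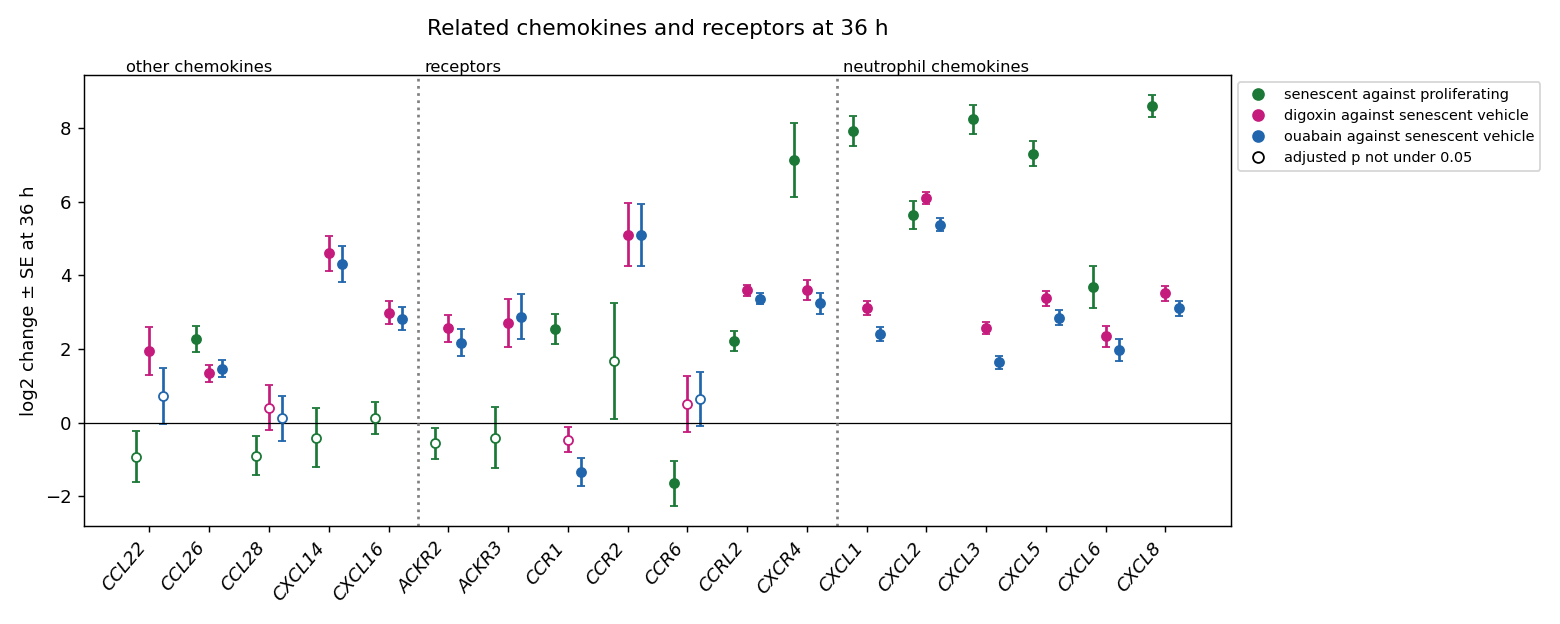
Log2 change ± SE at 36 h of the tested genes among other monocyte and lymphocyte chemokines, receptors of the 7 chemokines and neutrophil chemokines (x axis), for senescence (green), digoxin (magenta) and ouabain (blue); open circles mark adjusted p values not under 0.05. The 6 neutrophil chemokines are positive in all 3 comparisons, and CXCL14 rises with both drugs (4.60 and 4.32). The senescence point of CXCR4 and all points of CCR2 rest on a group with 0 or 1 count and depend on the prior count of the fit.

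Lists of interferon and of NF-kB genes were described next, which hold regulators as well as response and feedback genes. Of the 23 listed interferon signalling and response genes, 22 were tested, with 5 higher and 7 lower in senescence (median log2 change -0.22), 7 and 8 with digoxin (0.01) and 8 and 9 with ouabain (-0.09) at 36 h. Under scaling by library size these were 6 and 12 with digoxin and 6 and 11 with ouabain. IFNGR2, a chain of the interferon gamma receptor, fell by 1.21 with digoxin and 1.34 with ouabain. IFIT2, an interferon-induced antiviral gene, changed by -2.84 ± 0.22 in senescence and by -1.13 ± 0.32 and -1.72 ± 0.33 with the drugs. IFIT1, of the same family, changed by -2.59 ± 0.41 in senescence and by -2.39 ± 0.70 with ouabain, and its -1.11 ± 0.60 with digoxin was called only under scaling by library size (-1.42) of the scalings tried. MX1, another antiviral gene, rose by 2.43 ± 0.41 with digoxin and 2.68 ± 0.40 with ouabain, and IRF1, an interferon regulatory factor, by 0.93 ± 0.08 and 1.00 ± 0.08. SOCS1, a feedback inhibitor of interferon signalling, fell by 2.33 in senescence and rose by 1.74 ± 0.25 and 1.55 ± 0.25 with the drugs. Of the interferon genes named here, some rose and some fell with the drugs, and their part in the change of CXCL10 was not tested. Of 13 NF-kB subunits and feedback genes, all tested, 12 were higher and 0 lower in senescence, and 10 higher and 1 lower with each drug, where 26.7% and 25.8% of all genes were higher and lower in senescence and 30.2% to 32.4% in each direction with the drugs. The medians were 1.72 in senescence, 1.82 with digoxin and 1.63 with ouabain. TNFAIP3, a feedback inhibitor, rose by 3.07 ± 0.11 with digoxin and 2.63 ± 0.10 with ouabain, the subunit REL by 2.95 ± 0.23 and 2.28 ± 0.24, and NFKBIZ, an inhibitor-family protein, by 2.09 ± 0.10 and 1.63 ± 0.10 after 3.01 ± 0.11 in senescence. The 1 lower gene was ICAM1, an adhesion molecule for leukocytes, which had risen by 5.47 ± 0.14 in senescence and fell by 0.58 with digoxin and 0.62 with ouabain. Under scaling by library size, NFKB2 was also lower with both drugs (-0.48 and -0.31) and RELA with digoxin (-0.25).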

How the data were processed

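RNA of 36 libraries in 12 groups of 3 was sequenced after TRIzol and RNeasy extraction and a stranded mRNA library kit, per the labels' protocols. The deposited values are raw counts per Ensembl gene. Per the submitters' processing notes, TopHat2 2.0.11, featureCounts and hg19 were used; for featureCounts no version, strand setting or annotation is given in the sources used here, so reads of overlapping or antisense genes cannot be told apart.

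The test on these counts was edgeR 4.0.16 under R 4.3.3 with limma 3.58.1: filterByExpr by group, TMM, 1 quasi-likelihood model of 12 group means, 26 pairwise contrasts and 5 differences between effects, all two-sided, with Benjamini-Hochberg adjustment over 18696 genes. A standard error is the size of a log2 change divided by the root of its F statistic. Patterns used log2 CPM with a prior count of 2, for genes named in the reference table (39282 of 57232) with a mean of at least 1 CPM. Where a group had 1 to 3 counts of a member, its pairwise change is given in the text as a count ratio with a 95% counting interval. The interval covers counting error only, as PCR copies of a molecule are counted too. Differences between effects, and the figures, show log2 values in those cases too. Symbols came from a gene name table, in which 4 list genes were not found. Exon lengths came from GENCODE and promoters from RefSeq.

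The members, the gene lists and the comparisons were chosen with earlier results of these data known. Named were the 7 members, the 3 genes most like each (1 for the low members), and up to 4 called genes of each list with at least 1 CPM and the largest change at 36 h. ADAM17, DPP4, IFNGR2 and IRF1 were named in addition, after their values were seen, for their known roles. HRAS and the individual cell type markers were named as checks of the cells, some of them after their values were seen. Alternatives were DESeq2 1.42.0, RLE size factors, library size scaling, no filter, a replicate block, fits of the compared groups alone and without each library or both deviating ones; list counts were recomputed under the scalings after the data were seen. The fit was run on simulated data with few changed genes, all in a single group. That run does not test the scaling where most genes change. Figures were drawn with matplotlib 3.10.9.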

Additional observations from a re-analysis of the deposited data

Results flagged for a closer look

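For 8 combinations of member and drug, the drug effect at 36 h differed from that at 16 h in the test of the difference itself (edgeR, adjusted over all genes). These were 5 of the 7 members with digoxin, where 42.7% of all genes were called. With ouabain they were 3 of the 7, where 35.1% of all genes were called. With digoxin the difference on the log2 scale was -1.75 for CCL2, -2.15 for CCL7, 1.37 for CCL20, -3.12 for CXCL10 and -2.55 for CXCL11. With ouabain it was -1.86 for CCL2, -4.42 for CXCL10 and -3.64 for CXCL11. The value for CXCL11 rests on 2 counts with ouabain at 36 h, so its size is uncertain. The adjusted p was 0.0192 for CCL7 and 0.0327 for CXCL11 with digoxin, 0.0159 for CXCL11 with ouabain, and at most 5.01e-05 for the other 5. The calls of CCL2, CCL20 and CXCL10 held in every alternative tried. The call of CCL7 was lost without any of 3 libraries (to -1.75 without replicate 1 of digoxin at 16 h), that of CXCL11 with digoxin without any of 7 libraries (to -1.97 without replicate 2 of digoxin at 36 h), and that of CXCL11 with ouabain without replicate 1 of ouabain at 16 h (-3.18) or at 36 h (-3.02).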

How the results depend on the processing

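Over 217 member differences and 2758 alternative values, 0 called changes turned direction, 69 calls were lost, 41 were gained, and 139 differences that were called in neither fit changed sign. The falls of CCL2 and CXCL10 and the rise of CCL20 at 36 h were called with both drugs in every alternative. CXCL11, CCL7 and CX3CL1 have so few counts per library that single libraries decide several of their calls. Between the members, the count called in senescent vehicle cells at 36 h against 16 h went from 1 to 3 when those groups were fitted alone and to 2 without the filter, and for ouabain against digoxin at 16 h from 0 to 1 with DESeq2 and to 1 without the filter. Leaving out libraries gave 0 to 1 members called there, and likewise 0 to 1 for the time difference in senescent vehicle cells, the inhibitor in senescent vehicle and in digoxin-treated cells, and ouabain against digoxin with the inhibitor. It gave 3 to 5 members for digoxin at 16 h and 3 to 5 for digoxin by time, against 5 in both.

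Counts over all genes moved by more than 1.5 times in these cases. In a fit of the compared groups alone, 36 h against 16 h went from 1522 to 84 in proliferating cells and from 287 to 1093 in senescent vehicle cells, the inhibitor from 164 to 434 in digoxin-treated, from 1662 to 2786 in ouabain-treated and from 1385 to 5562 in senescent vehicle cells. Ouabain against digoxin went from 923 to 0 at 16 h, from 1003 to 2150 at 36 h and from 271 to 933 with the inhibitor, digoxin by inhibitor from 46 to 646, ouabain by inhibitor from 28 to 644 and senescence by time from 399 to 186. With DESeq2 the counts were 131 for digoxin by inhibitor, 62 for ouabain by inhibitor, 304 for the inhibitor in digoxin-treated cells, 1392 for the inhibitor in proliferating cells and 496 for ouabain against digoxin with the inhibitor. Without the filter they were 22 for digoxin by inhibitor, 86 for ouabain by inhibitor, 415 for the inhibitor in proliferating cells (671 with it) and 668 in senescent vehicle cells. Library size scaling gave 12 and RLE size factors 11 for digoxin by inhibitor. Without both deviating libraries there were 2758 for 36 h against 16 h in proliferating cells, 281 for ouabain against digoxin at 16 h and 771 for senescence by time.

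Leaving out 1 library at a time gave 994 to 2612 for 36 h against 16 h in proliferating and 128 to 148 in senescent vehicle cells, 2 to 27 for digoxin by inhibitor, 8 to 20 for ouabain by inhibitor and 264 to 1098 for senescence by time. For the inhibitor it gave 94 to 113 in digoxin-treated, 765 to 1239 in ouabain-treated, 129 to 676 in proliferating and 527 to 870 in senescent vehicle cells, and for ouabain against digoxin 127 to 1693 at 16 h, 374 to 655 at 36 h and 92 to 305 with the inhibitor. The cause was not tested for any of these.

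Pairing by replicate number was not found under the rule used. In 0 of 26 comparisons did every same-numbered pair correlate over 0.1, and 11 of 36 libraries correlated best with their own number. Single pairs did pass 0.1, as 0.26 and 0.14 beside -0.049 in senescence at 16 h. The rule therefore cannot show that the libraries were unpaired. The replicate block took ouabain by inhibitor from 28 to 17 genes and lost 1 member call, CX3CL1 with digoxin and inhibitor against proliferating cells (0.92 to 0.91, adjusted p = 0.0489 to 0.0521). With Spearman correlation in place of Pearson, most of the genes most like a member were other genes.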
